A study of Mus musculus with 9 samples.

Results

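Genes used as markers of blood vessel endothelium were followed in RNA from lymphatic endothelial cells (LECs), the cells that line lymph vessels. The set holds 10 genes, Plvap, Aqp1, Esm1, Emcn, Cav1, Ly6c1, Ly6a, Sox17, Apln and Aplnr, found by their symbol among 23018 genes in the count table. The cells came from meninges (the membranes around the brain), diaphragm and skin of untreated, wild-type adult male mice of the C57/Bl6 strain aged 10 weeks. They were sorted as CD45-, CD31+ and PDPN+, that is, without the leukocyte antigen and with the endothelial antigen CD31 (Pecam1) and podoplanin (Pdpn), which blood endothelium largely lacks. Each tissue gave 3 libraries, 9 in all. Nothing in the labels says whether these came from separate animals or from pools, so p-values measure only the spread between libraries. The gate uses surface proteins only, and both podoplanin and CD31 are also carried by cells other than LECs.

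Blood and lymphatic endothelium arise from a common lineage and share many genes, but differ in barrier and transport structures. Blood capillaries carry fenestrae and caveolae, a sialomucin coat and water channels, and sprouting vessels lead with tip cells that secrete signals such as apelin. Several of the 10 genes are not exclusive to blood endothelium: Cav1 is made in LECs and many other cells, Aqp1 in choroid plexus epithelium, mesothelium and red cells, and Ly6a in fibroblast-like progenitors.

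Library totals ran from 26075366 to 34592850 counts. Lymphatic markers were abundant in every library: levels are given as CPM, the counts scaled to a common library size by TMM, and Prox1, the lymphatic master regulator, lay between 716 and 2042 CPM, Flt4, the VEGF-C receptor, between 1353 and 3646, and the hyaluronan receptor Lyve1 between 909 and 5125. Ccl21a, a lymphatic chemokine with near-identical gene copies, stood at 1.35 CPM or less. All meningeal libraries lay below all others for Prox1 (716 to 1332 CPM against 1666 or more) and Lyve1 (909 to 2619 against 2767 or more). Prox1 was not called by edgeR in any comparison, and Flt4 of meninges overlapped both other tissues. Summed over 12 lymphatic markers, levels ran from 6935 to 16370 CPM in meninges, 15489 to 23057 in diaphragm and 22129 to 23538 in skin. Summed over 10 pan-endothelial markers, levels ran from 1621 to 3798 CPM in meninges, 2824 to 3270 in diaphragm and 2752 to 3331 in skin. Meninges replicate 2 was the lowest of the 9. In bulk RNA, fewer cells of a type and less RNA per cell cannot be told apart.

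The promoters of 4 members that differed between meninges and skin are shown first, 2 of genes higher in meninges (Aqp1, Esm1) and 2 of genes lower there (Emcn, Cav1). Each is the 250 bases before the RefSeq start site on GRCm38.p6, 5′ to 3′, and capitals mark AGGAAG, a form of the ETS core motif, or ACAAT, the SOX core motif, on either strand. For Cav1, the upstream start of its pair of starts is shown.
Aqp1 (chr6:55336049-55336298, plus strand): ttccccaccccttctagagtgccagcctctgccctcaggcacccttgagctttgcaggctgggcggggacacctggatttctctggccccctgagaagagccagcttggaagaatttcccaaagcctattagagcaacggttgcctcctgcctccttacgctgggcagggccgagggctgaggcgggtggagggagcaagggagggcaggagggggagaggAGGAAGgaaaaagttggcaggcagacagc
Esm1 (chr13:113209409-113209658, plus strand): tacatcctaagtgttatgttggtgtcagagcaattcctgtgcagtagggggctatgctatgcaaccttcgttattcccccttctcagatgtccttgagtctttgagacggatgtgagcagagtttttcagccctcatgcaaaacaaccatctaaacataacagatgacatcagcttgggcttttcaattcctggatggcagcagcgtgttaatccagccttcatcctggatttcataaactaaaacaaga
Emcn (chr3:137340828-137341077, plus strand): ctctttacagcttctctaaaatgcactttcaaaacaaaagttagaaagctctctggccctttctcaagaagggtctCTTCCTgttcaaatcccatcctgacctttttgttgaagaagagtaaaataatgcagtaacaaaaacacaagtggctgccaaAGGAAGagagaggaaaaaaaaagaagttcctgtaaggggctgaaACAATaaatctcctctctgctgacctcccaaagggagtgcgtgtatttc
Cav1 (chr6:17306085-17306334, plus strand): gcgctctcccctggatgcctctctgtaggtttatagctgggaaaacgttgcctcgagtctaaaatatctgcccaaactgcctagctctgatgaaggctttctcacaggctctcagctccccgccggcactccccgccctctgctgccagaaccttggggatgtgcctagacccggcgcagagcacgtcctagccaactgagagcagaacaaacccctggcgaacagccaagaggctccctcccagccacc
ETS and SOX factors, Sox17 among the latter, are regulators of endothelial genes. Aqp1 held 1 ETS match and Emcn 2 ETS matches and 1 SOX match, while neither motif was found in these windows of Esm1 and Cav1. Of all 32851 RefSeq promoter windows of the same length, 29.5% held the ETS letters and 27.7% the SOX letters, so a match is common and is only a description. A promoter entry was at hand for 6 of the 10 members, the others being Plvap, Ly6a, Sox17 and Aplnr.

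Compared with skin, meningeal LEC sorts carried more Plvap, Aqp1, Esm1 and Sox17 transcripts and fewer Emcn and Cav1 transcripts. Of the 9 members that passed the low-count filter (all but Apln), these 4 were called higher and these 2 lower, at a Benjamini-Hochberg adjusted p under 0.05 in edgeR's quasi-likelihood test over all 14831 genes. A gene is named as called by this test unless another tool is given. Among all genes tested, 0.748% were called higher and 0.573% lower, 1.32% in all. The members were picked with results of these libraries known, and members that are high in only 1 tissue pass the filter through that tissue, so their number of calls is no independent support. Compared with diaphragm, Plvap was higher and Cav1 lower, against 0.169% and 0.175% of all genes called higher and lower (0.344% in all). Between diaphragm and skin 0 members were called by edgeR, against 0.0405% of all genes (0.0337% higher and 0.00674% lower). In that comparison 7 of the 9 had an unadjusted p under 0.05, as did 11.8% of all genes. The DESeq2 Wald test called 4 members and 808 of all 14831 genes, and limma voom called 0 members and 1 gene.

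The libraries of meninges and skin did not overlap for any of the 9 tested members, 7 higher and 2 lower, where 12.9% and 7.34% of all genes were (20.2% in all). Meninges lay apart from diaphragm for 3 members upward and 2 downward, against 10.4% and 6.7% of all genes (17.1% in all), and 4 of the 9 had an unadjusted p under 0.05, as did 10.1% of all genes. Diaphragm lay apart from skin for 6 members upward and 1 downward, against 7.54% and 5.95% of all genes (13.5% in all). Between meninges and skin 8 had an unadjusted p under 0.05, against 13.8% of all genes. The median log2 difference of the 9 was 4.32 between meninges and skin, 0.34 between meninges and diaphragm and 3.19 between diaphragm and skin, beside 0.08, 0.05 and 0.01 over all genes tested. With the 3 members that had no skin count set at their lower bound, the median between diaphragm and skin was 2.73 and that between meninges and skin stayed at 4.32. The comparisons share their libraries pairwise, so these values are not independent of each other.

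**Figure D1:**
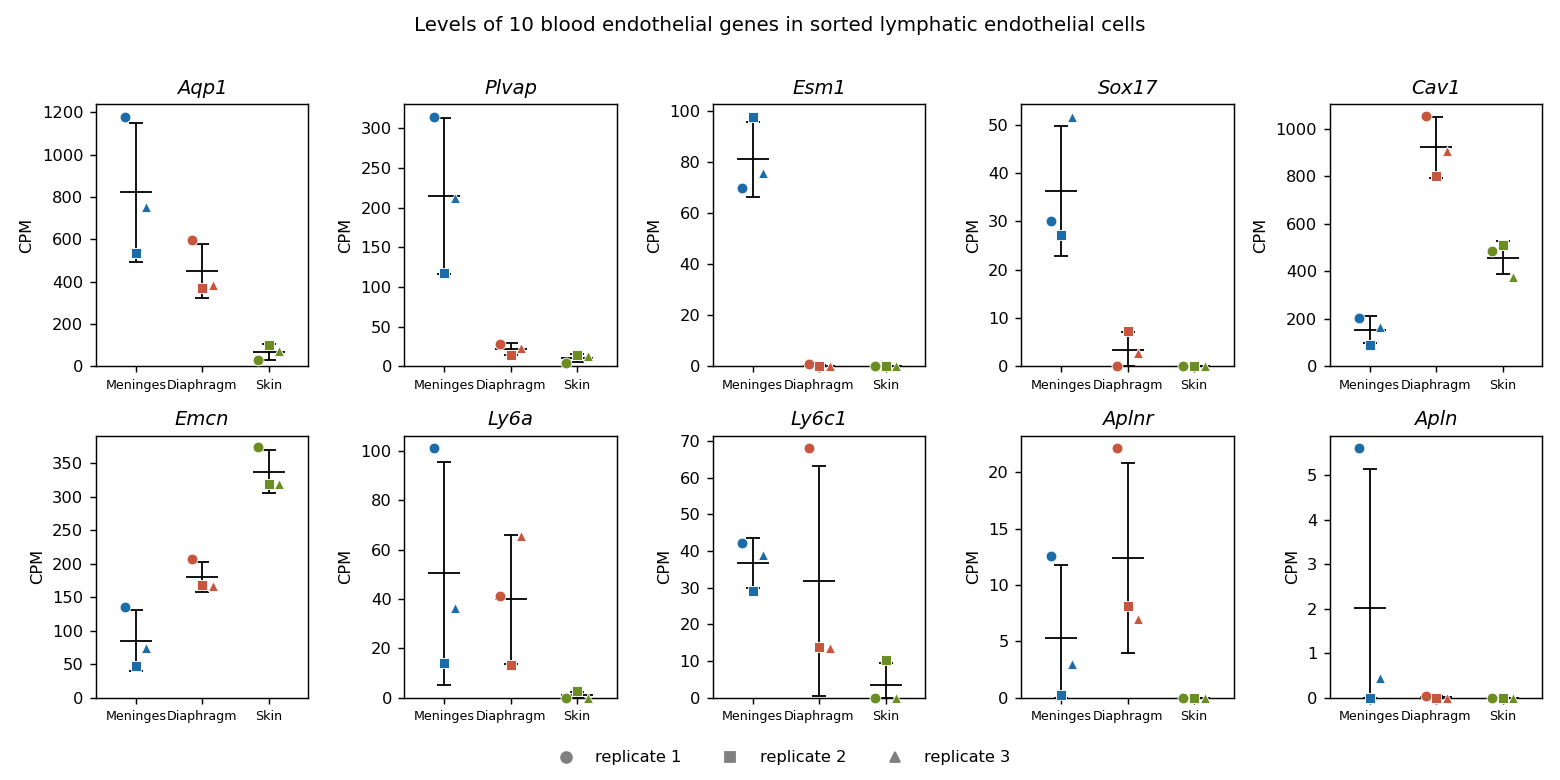
Level of each of the 10 genes in each library, in CPM on linear axes that start at 0, by tissue. Symbols are libraries by replicate number, horizontal lines are means of 3 libraries and vertical bars are SD, stopped at 0. Plvap, Esm1 and Sox17 points of meninges all lie above those of both other tissues, Cav1 and Emcn points of meninges all lie below them, and Esm1, Sox17, Aplnr and Apln lie at 0 in skin.

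Plvap encodes a protein of the diaphragms that span endothelial fenestrae and caveolae. It stood at 314, 117 and 212 CPM in Meninges replicates 1 to 3, at 28.0, 13.7 and 22.9 CPM in the diaphragm libraries and at 4.64, 14.2 and 13.4 CPM in the skin libraries. Each meningeal library lay above each of the other 6, while diaphragm and skin overlapped. Its mean of 215 ± 98.5 CPM in meninges (SD, n = 3) was 9.96-fold that of diaphragm (log2 difference 3.32 ± 0.63 SE, adjusted p = 0.0449 by edgeR) and 20.0-fold that of skin (log2 difference 4.32 ± 0.67 SE, adjusted p = 0.00743 by edgeR). The difference from skin passed whichever of the 9 libraries was omitted. The difference from diaphragm passed when any 1 skin library was omitted and was lost without any 1 meningeal or diaphragm library (adjusted p by edgeR up to 0.195, and from 7.64e-06 to 0.208 over all alternatives). The difference between diaphragm and skin did not pass the test (log2 difference 1.003 ± 0.59 SE, adjusted p = 0.539 by edgeR).

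Aqp1, the water channel of the plasma membrane, measured 1180, 535 and 752 CPM in meninges, 595, 369 and 386 CPM in diaphragm and 30.5, 103 and 71.2 CPM in skin. Skin was the low tissue here, since meninges and diaphragm overlapped and both lay above all skin libraries. Meninges exceeded skin 12.1-fold in the mean (log2 difference 3.59 ± 0.48 SE, adjusted p = 0.00257 by edgeR), a call made whichever of the 9 libraries was omitted. Diaphragm exceeded skin 6.61-fold (log2 difference 2.73 ± 0.46 SE) with an edgeR adjusted p of 0.0521, and was called without Meninges replicate 1 or Skin replicate 2 (adjusted p over all alternatives, other tools included, from 2.64e-06 to 0.151). Between meninges and diaphragm the difference was within the spread (edgeR adjusted p = 0.557).

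Markers of choroid plexus epithelium, a water-secreting brain tissue rich in Aqp1, differed between the tissues too. The summed level of their 9 genes was 830 to 882 CPM in meninges, 28.1 to 173 in diaphragm and 23.8 to 87.8 in skin, with 1 of 7 tested genes called higher in meninges than in diaphragm and 2 called higher than in skin by edgeR, against 3 and 4 called by DESeq2 and 3 and 5 by voom in either direction. Ttr, the thyroid hormone carrier that choroid plexus secretes, made up 429 to 529 CPM of the meningeal sums and Enpp2, a lysophospholipase, 269 to 311 CPM. The calls of Ttr held whichever library was omitted, and that of Enpp2 against skin (edgeR adjusted p = 0.0494) was lost without any 1 meningeal or skin library (adjusted p up to 0.424 over all alternatives). Kl measured 18.8, 10.7 and 51.0 CPM, Clic6 5.38, 17.0 and 4.23 CPM and Slc4a5 3.57, 1.41 and 7.90 CPM in the meningeal libraries. In the other tissues Kl reached 1.51 CPM at most, and Clic6 and Slc4a5 had no count. Prlr and Kcnj13 of the same list were not confined to meninges. Prlr measured 10.2 to 29.4 CPM in meninges and 0.568 to 13.8 CPM in diaphragm. In skin Prlr stood at 41.3 CPM in replicate 2 and had no count in replicates 1 and 3. Kcnj13 measured 3.84 to 10.5 CPM in meninges, and reached 6.20 CPM in diaphragm and 4.22 CPM in skin. Folr1, the choroid plexus folate receptor, was at 2.50 CPM in Meninges replicate 1 and without a count in replicates 2 and 3, and the transcription factor Otx2 stood at 0.188, 9.94 and 9.67 CPM. In the diaphragm libraries Ttr reached 0.0716 CPM at most. Their Aqp1 level is that of another tissue and says nothing on the source of Aqp1 in meninges. The part of choroid plexus cells in the Aqp1 level of the meningeal libraries was not tested.

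Esm1, a secreted proteoglycan of endothelial tip cells, was found almost wholly in the meningeal libraries. It stood at 69.7, 97.6 and 75.5 CPM in meninges, whereas diaphragm replicate 1 had 21 counts (0.774 CPM), diaphragm replicates 2 and 3 had none, and skin had none in any library. Against a floor of 3 counts over the 3 skin libraries it was at least 1953-fold higher in meninges than in skin, 10.93 on the log2 scale (edgeR adjusted p = 0.0181). That call was lost without Meninges replicate 2 or 3 (edgeR adjusted p up to 0.0618, and from 6.59e-07 to 0.138 over all alternatives, other tools included). Against diaphragm the means differed 314-fold, but edgeR did not call it (adjusted p = 0.122). Without Diaphragm replicate 1, which holds all 21 counts of its tissue, the edgeR adjusted p was 0.0149, and over all alternatives, other tools included, it ran from 2.94e-04 to 1.

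Sox17, a transcription factor of arterial identity, measured 30.0, 27.1 and 51.6 CPM in meninges, 0.147, 7.39 and 2.76 CPM in diaphragm, and had no count in skin. All meningeal libraries lay above all diaphragm libraries, and these above skin. The level in meninges was at least 874-fold that of skin against the same floor, 9.77 on the log2 scale (edgeR adjusted p = 0.0283). The call was lost without any 1 meningeal or skin library (edgeR adjusted p up to 0.132, and from 1.27e-09 to 0.378 over all alternatives, other tools included). The 10.6-fold higher mean in meninges than in diaphragm was not called (edgeR adjusted p = 0.516).

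The remaining SOXF factors, Sox18 and Sox7, which act with Sox17 in vessel development, did not share this pattern, although the difference between the genes was not tested. Sox18, needed for lymphatic fate, had 162, 36.5 and 209 CPM in meninges, and ran from 122 to 182 CPM in diaphragm and from 130 to 223 CPM in skin. Sox7 lay at 6.87 to 18.6 CPM in meninges, 21.2 to 86.0 in diaphragm and 25.7 to 207 in skin. Neither was called by edgeR in any of the 3 comparisons.

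**Figure D2:**
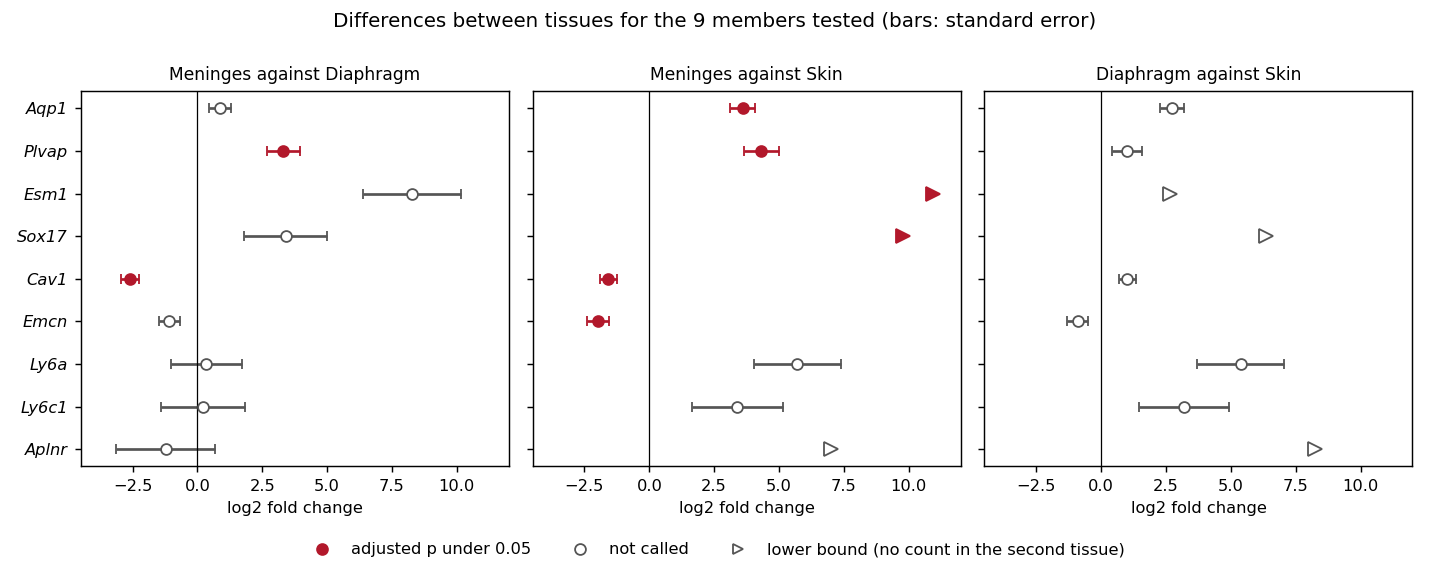
Log2 fold change of the 9 members tested, by comparison, with bars of 1 standard error. Triangles are lower bounds against a floor of 3 counts where the second tissue had no count, and filled symbols passed an adjusted p under 0.05. Against skin 4 members are filled on the right of 0 and Cav1 and Emcn on the left. Against diaphragm only Plvap and Cav1 are filled.

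Cav1 encodes caveolin-1, the coat protein of caveolae, the small pits through which endothelium takes up and carries cargo. It ran in the opposite direction to Plvap, with 203, 90.9 and 166 CPM in meninges, 1055, 802 and 909 CPM in diaphragm and 485, 511 and 378 CPM in skin. The 3 tissues did not overlap, with meninges lowest and diaphragm highest. Cav1 was 6.01-fold lower in meninges than in diaphragm by the means (log2 difference -2.59 ± 0.35 SE, adjusted p = 0.00537 by edgeR), a call made whichever of the 9 libraries was omitted. It was 2.99-fold lower than in skin (log2 difference -1.58 ± 0.34 SE, adjusted p = 0.0360 by edgeR). The latter call was made without Diaphragm replicate 1 or Meninges replicate 1 and lost without any 1 of the other 7 libraries, and its edgeR adjusted p was 0.0998 with the 2 tissues alone and 0.0607 when libraries were scaled by their pan-endothelial markers. Over all alternatives, other tools included, the adjusted p ran from 0.00216 to 0.706. The difference from diaphragm ran from 2.25e-08 to 0.112, and was lost with Meninges replicate 1 as the sole meningeal library. Diaphragm and skin were 2.01-fold apart without passing the test (edgeR adjusted p = 0.318).

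Of 7 caveola genes counted besides Cav1, 6 were tested and 1 was called by edgeR. DESeq2 called 2 between meninges and diaphragm and 2 between meninges and skin, and voom called 0 and 1. In the same order, 3 and 2 of the 6 had an unadjusted p under 0.05, as did 10.1% and 13.8% of all genes. Of all 14831 genes, DESeq2 called 629 and 1108 and voom 200 and 414 in these comparisons. Pacsin2, which bends the membrane at the caveola neck, was lower in meninges than in skin (103, 72.1 and 111 CPM against 358, 282 and 342 CPM, edgeR adjusted p = 0.0367, lost without any 1 meningeal or skin library and from 6.17e-04 to 0.690 over all alternatives, other tools included). Cav2, the partner of caveolin-1, had 29.3, 7.94 and 33.1 CPM in meninges, 55.5 to 145 CPM in diaphragm and 99.2 to 158 CPM in skin, so its meningeal libraries also lay below all others, without a call (edgeR adjusted p = 0.289 against diaphragm and 0.0892 against skin). The coat protein gene Ptrf (cavin-1) was at 218 to 238 CPM in meninges, 237 to 314 in diaphragm and 174 to 290 in skin. Sdpr (cavin-2), the most abundant of the list with Ehd2, varied from 187 to 642 CPM in meninges and from 662 to 1512 CPM in diaphragm. The list's median log2 difference was -0.79 between meninges and diaphragm and -0.36 between meninges and skin, beside 0.05 and 0.08 over all genes.

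Emcn encodes endomucin, a sialomucin that coats venous and capillary endothelium and hinders leukocyte adhesion. It stood at 135, 47.5 and 74.0 CPM in meninges, 206, 168 and 167 CPM in diaphragm and 374, 318 and 319 CPM in skin. Again no 2 tissues overlapped, but here skin was highest. The mean in meninges was 3.94-fold below that of skin (log2 difference -1.98 ± 0.42 SE, adjusted p = 0.0343 by edgeR). This call was lost without Meninges replicate 2 or 3 or any 1 skin library, and with the 2 tissues alone (edgeR adjusted p = 0.0748, adjusted p over all alternatives, other tools included, 6.26e-04 to 0.908). Neither the step from meninges to diaphragm (edgeR adjusted p = 0.375) nor that from diaphragm to skin (edgeR adjusted p = 0.412) passed. Podxl and Cd34, sialomucins of the same class, were not called by edgeR in any comparison. Podxl measured 554, 151 and 244 CPM in meninges against 494 to 663 in diaphragm and 532 to 678 in skin, while Cd34 was at 19.0 to 55.1, 61.7 to 119 and 0 to 5.07 CPM.

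Ly6a and Ly6c1 encode small surface proteins held by a lipid anchor, Sca-1 and Ly-6C, both used to mark capillary and arterial endothelium and also carried by other cells. Ly6c1 has a close copy, Ly6c2, and the first 150 coding bases of both (GENCODE M21) are shown, with the bases that differ in capitals, because such copies can share reads.
Ly6c1: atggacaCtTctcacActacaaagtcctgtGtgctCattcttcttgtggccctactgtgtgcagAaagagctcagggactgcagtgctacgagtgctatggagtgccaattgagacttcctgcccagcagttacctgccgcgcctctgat
Ly6c2: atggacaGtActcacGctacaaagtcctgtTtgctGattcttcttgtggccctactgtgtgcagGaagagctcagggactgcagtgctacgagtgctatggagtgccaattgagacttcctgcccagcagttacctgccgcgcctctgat
The coding sequences of 393 bases differed at 9 bases (97.7% identity), and 31.7% of the 50-base windows of the Ly6c1 transcript occurred unchanged in Ly6c2. Ly6c2 had 5 counts over the 9 libraries together, against 6601 for Ly6c1. The sources used here do not say how reads matching both copies were handled, so the Ly6c1 level is uncertain.

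Ly6c1 measured 42.3, 29.2 and 38.9 CPM in meninges, 68.0, 13.7 and 13.7 CPM in diaphragm and 0, 10.4 and 0.0457 CPM in skin. Ly6a measured 101, 13.9 and 36.6 CPM in meninges, 41.3, 13.1 and 65.4 CPM in diaphragm and 0.0774, 2.80 and 0 CPM in skin. For both genes skin lay below the other tissues, and Skin replicate 2 held nearly all counts of its tissue. Neither was called (edgeR adjusted p = 0.440 for Ly6c1 and 0.146 for Ly6a between meninges and skin, and 0.508 and 0.292 between diaphragm and skin). Without Skin replicate 2 both passed in each of these comparisons, with edgeR adjusted p of 0.0143 and 0.0135 for meninges and 0.0371 and 0.0360 for diaphragm. Over all alternatives and tools, the adjusted p between meninges and skin ran from 0.0143 to 0.917 for Ly6c1 and 4.02e-04 to 0.314 for Ly6a. Between diaphragm and skin it ran from 0.0371 to 0.848 and from 0.00150 to 0.481. DESeq2 gave no adjusted p for Ly6c1 between meninges and either other tissue, so the DESeq2 member counts take Ly6c1 as not called there. Meninges and diaphragm overlapped for both genes (edgeR adjusted p = 0.994 and 0.990).

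Other members of the Ly6 family differed widely in level. Of the 7 counted, 4 stayed below the filter, and 3 were tested and 0 called by edgeR, DESeq2 or voom, with 1 at an unadjusted p under 0.05 between meninges and diaphragm and 0 in the other comparisons. Ly6e, an interferon-inducible member, stood at 689, 286 and 728 CPM in meninges, 323 to 329 CPM in diaphragm and 147 to 481 CPM in skin, and Gpihbp1, which holds lipoprotein lipase on capillaries, at 7.19 to 78.3, 82.9 to 184 and 72.7 to 125 CPM.

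Apelin is a peptide released by sprouting endothelium, and its receptor is made on veins and growing vessels. Of the receptor, Aplnr, 12.6, 0.281 and 3.01 CPM were measured in meninges and 22.1, 8.14 and 6.95 CPM in diaphragm, and no count was present in skin. Means were at least 128-fold higher in meninges and 299-fold higher in diaphragm than the skin floor of 0.0415 CPM, but edgeR called neither (adjusted p = 0.133 and 0.214). The ligand, Apln, was nearly absent: 5.60, 0 and 0.449 CPM in meninges, 1 count in diaphragm and none in skin. It did not pass the low-count filter and was not tested. Of the other apelin system genes, the G protein subunits Gnai2 (138 to 252 CPM in meninges, 178 to 409 in diaphragm, 284 to 382 in skin) and Gnai3 were detected throughout, and none of the 3 tested was called by edgeR, DESeq2 or voom (1 had an unadjusted p under 0.05 between meninges and each other tissue).

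Per kilobase of exon (GENCODE M21 lengths, which may differ from those used for counting), the order of the 10 members differed between tissues. In meninges Aqp1 led with 313 ± 125 CPM per kb, followed by Plvap with 108 ± 49.6 and Cav1 with 44.5 ± 16.6 (SD, n = 3 each). Ly6a (41.9 ± 37.5), Esm1 (38.6 ± 7.0) and Cav1 lay within their spread of each other, as did Ly6c1 (21.9 ± 4.1) and Emcn (15.8 ± 8.3). In diaphragm Cav1 led with 268 ± 36.9 CPM per kb before Aqp1 with 171 ± 47.9 and Emcn with 33.4 ± 4.2. In skin Cav1 (133 ± 20.5) and Emcn (62.3 ± 5.9) stood above Aqp1 (25.9 ± 13.8) and Plvap (5.41 ± 2.67). Plvap was thus the second of the set in meninges, the sixth in diaphragm and the fourth in skin.

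**Figure D3:**
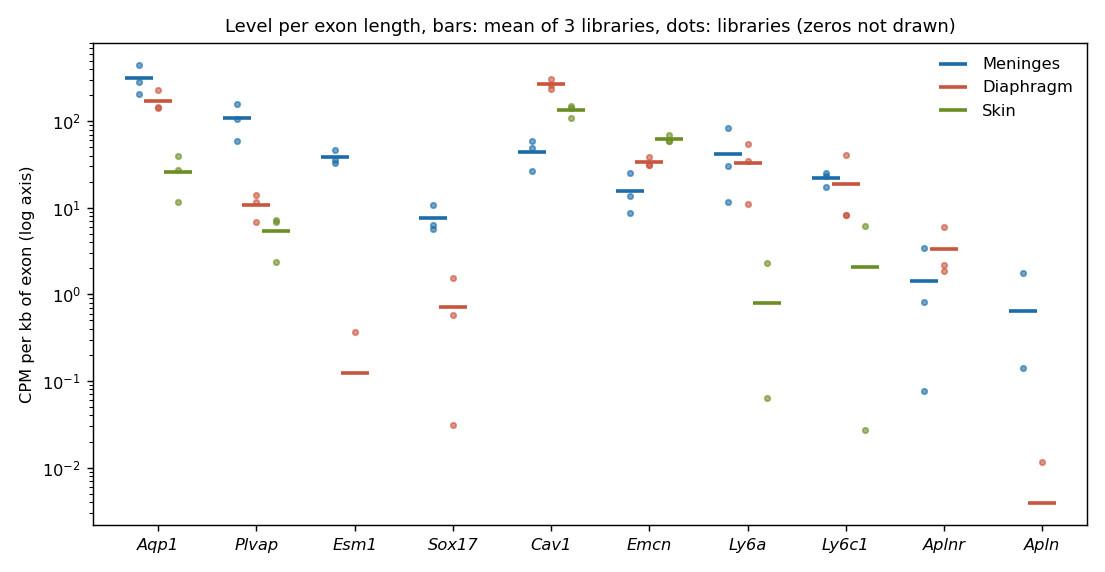
CPM per kilobase of exon on a log axis for each gene and tissue. Horizontal dashes are means of 3 libraries and dots are libraries, with zeros not drawn. Aqp1 is the highest member in meninges at 313 CPM per kb, and Cav1 the highest in diaphragm and skin at 268 and 133.

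Within meninges the libraries were ordered alike for most members. Meninges replicate 2 was the lowest of the 3 for 9 of the 10, all except Esm1, and Meninges replicate 1 the highest for 8. Over all tested genes, 32.5% were lowest in replicate 2 and 32.4% highest in replicate 1. Of 10 pan-endothelial markers, 8 were lowest in replicate 2 and 8 highest in replicate 1, not all of them the same genes. Of 12 lymphatic markers, 12 were lowest in replicate 2 and 10 highest in replicate 1. With libraries scaled by the summed pan-endothelial markers, a choice made after seeing the data, the median of all genes moved by 0.29 between meninges and diaphragm and by 0.24 between meninges and skin on the log2 scale. Plvap then differed by 3.42 and 4.39 and Cav1 by -2.45 and -1.50 on the same scale. Of the 8 member calls, the Cav1 call against skin was the one lost.

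Other blood endothelial genes were looked up from 6 lists (general, arterial, venous, capillary, tip cell and brain barrier genes), which hold 60 genes without the members, 54 of them tested. In meninges against skin edgeR called 3 higher and 2 lower, while DESeq2 called 12 and voom 6 in either direction, and 27 had an unadjusted p under 0.05. In meninges against diaphragm edgeR called 1 lower and 0 higher, DESeq2 called 7 and voom 2 in either direction, and 18 had an unadjusted p under 0.05. In diaphragm against skin 0 were called by edgeR, 11 by DESeq2 and 0 by voom, with 14 at an unadjusted p under 0.05. Their median log2 difference was 1.20 between meninges and skin, -0.12 between meninges and diaphragm and 0.78 between diaphragm and skin (0.66 with the 4 genes that had no count in a tissue at their bound), beside 0.08, 0.05 and 0.01 over all genes. In that order, 13.8%, 10.1% and 11.8% of all 14831 genes had an unadjusted p under 0.05, and edgeR called 1.32%, 0.344% and 0.0405%. Between meninges and skin DESeq2 called 1108 of all genes and voom 414, and between meninges and diaphragm 629 and 200. The lists were chosen with results of these libraries known, so their counts are no independent support.

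Among general and arterial genes, Nrp1, a VEGF and semaphorin co-receptor, was higher in meninges than in skin (133, 177 and 170 CPM against 0, 2.96 and 2.24 CPM, edgeR adjusted p = 0.0219), the 1 edgeR call among 13 general genes, where DESeq2 called 3 and voom 2. Omitting Meninges replicate 2, Meninges replicate 3 or Skin replicate 3 ended the call (adjusted p up to 0.0783 over all alternatives). Kdr, the main VEGF receptor of endothelium, stood at 261 to 548 CPM in meninges, 646 to 905 in diaphragm and 535 to 763 among skin libraries, with no edgeR call. Of 9 arterial genes tested, 2 were called by edgeR lower in meninges than in skin. They were the kinase gene Bmx (10.4, 1.97 and 1.56 CPM against 95.9, 107 and 127 CPM, edgeR adjusted p = 0.0254) and ephrin-B2, Efnb2 (43.9, 60.4 and 36.3 CPM against 275, 441 and 519 CPM, edgeR adjusted p = 0.00232), which was lower than in diaphragm as well (edgeR adjusted p = 0.00971). The Efnb2 call against skin held whichever library was omitted and that against diaphragm was lost without Meninges replicate 3, while omitting Meninges replicate 2, Meninges replicate 3 or Skin replicate 3 ended the Bmx call (adjusted p up to 0.550 over all alternatives). Against skin, Sox17 was thus called higher in meninges and these 2 arterial genes lower. Gja5, an arterial connexin, reached 3.80 CPM at most.

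Of 9 tip cell genes tested, Trp53i11 was called higher in meninges than in skin (269, 160 and 293 CPM against 19.6, 29.4 and 5.58 CPM, edgeR adjusted p = 0.0259). Angpt2, an angiopoietin released by tip cells and LECs, measured 398, 251 and 458 CPM in meninges against 74.0 to 207 in diaphragm and 66.7 to 259 in skin, without an edgeR call. Unc5b, a netrin receptor gene, measured 229, 193 and 300 CPM in meninges against 67.3 to 151 in diaphragm and 59.9 to 165 in skin, also without one. The Trp53i11 call was lost without Meninges replicate 3, Skin replicate 1 or Skin replicate 3 (adjusted p up to 0.0841 over all alternatives). Of 8 brain barrier genes tested, the drug exporter gene Abcb1a was called higher in meninges than in skin (65.6, 25.8 and 42.9 CPM against no count, edgeR adjusted p = 0.0338), a call lost without any 1 meningeal or skin library (adjusted p up to 0.0850 over all alternatives). Of 6 venous and 11 capillary genes tested, 0 were called by edgeR in any comparison. DESeq2 called 2 venous genes between meninges and skin and 2 between diaphragm and skin, where 4 and 2 had an unadjusted p under 0.05, and voom called 0. Of the capillary genes, DESeq2 called 2 and voom 1 between meninges and diaphragm, and DESeq2 called 2 between diaphragm and skin, where 4 and 3 had an unadjusted p under 0.05. Ephb4, the venous partner of ephrin-B2, measured 184 to 232 CPM in meninges, 175 to 217 in diaphragm and 162 to 257 across skin libraries. Ephx1, an epoxide hydrolase gene, measured 12.3 to 74.8, 60.1 to 255 and 132 to 189 CPM in the same tissue order, and Cd300lg, a capillary mucin gene, 81.8 to 150, 119 to 289 and 86.2 to 272 CPM. The venular receptor gene Ackr1 reached 4.69 CPM at most, and Btnl9, a capillary gene, stood at 24.7 to 132 CPM in meninges, 380 to 442 in diaphragm and 134 to 314 in skin.

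Transcripts more restricted to blood vessels varied strongly between libraries of 1 tissue. Vwf, the clotting factor carrier stored in blood endothelium, stood at 434, 101 and 163 CPM in meninges, 79.6, 16.6 and 3.72 in diaphragm and 0.542, 99.6 and 0.0457 in skin. Flt1, a VEGF receptor of blood vessels, stood at 441, 109 and 106 CPM, 556, 113 and 93.4 CPM and 57.6, 28.0 and 0.0914 CPM in the same order. Both were highest of their tissue in Meninges replicate 1 and Diaphragm replicate 1, the libraries with the most Aplnr and Ly6c1. Ly6a, however, was highest in Diaphragm replicate 3. Vwf was highest in Skin replicate 2, the skin library with the most Ly6c1 and Ly6a, but Flt1 was highest in Skin replicate 1. Not all general genes followed this order: within meninges Nrp1 was lowest in replicate 1 and Cd34 highest in replicate 3. The 13 general blood endothelial genes summed to 3065, 1204 and 2107 CPM in Meninges replicates 1 to 3, to 3141 CPM in Diaphragm replicate 1 and 2220 and 2107 CPM in the others, and to 2160, 1540 and 1592 CPM in Skin replicates 1 to 3. The brain barrier list had another order, with 492, 358 and 608 CPM in the meningeal libraries. Within it Slco1c1 (24.2, 0.0312 and 0 CPM) and Slc2a1 (94.8, 8.44 and 32.5 CPM) were highest in Meninges replicate 1, and Spock2, a matrix proteoglycan gene (28.7, 123 and 197 CPM), and Itm2a, a membrane protein gene (33.0, 73.6 and 147 CPM), were lowest there. Esm1, in contrast, was lowest of the meningeal libraries in replicate 1. Abcg2, a drug exporter gene of the same list, lay between 101 and 165 CPM in meninges, 136 and 228 CPM in diaphragm and 191 and 315 CPM among skin libraries. Whether blood endothelial cells contributed to these values was not tested.

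Markers of further cell types differed between the tissues too. Of 12 fibroblast markers, Col3a1 was called higher in meninges than in skin (lost in 5 of the 9 omissions of a library, those of Diaphragm replicate 2, Meninges replicates 2 and 3 and Skin replicates 1 and 3), and the list summed to 1740, 8554 and 8298.5 CPM in meninges, 1219 to 1929 in diaphragm and 776 to 1809 in skin. Collagen genes led it, with Col1a1 at 543, 2917 and 2848 CPM and Col1a2 at 488, 2574 and 2614 CPM in meninges and both at 260 CPM or less elsewhere. Not all markers of the list followed them. By the means, Dpt, Pi16 and Clec3b were lowest in meninges, without an edgeR call. Dpt stood at 1.75 to 2.84 CPM in meninges, 71.2 to 105 in diaphragm and 0.348 to 95.0 in skin. Fbn1 lay at 365 to 639, 433 to 533 and 571 to 656 CPM in that order. Of 11 mural cell markers, Notch3 was called higher in meninges than in skin (a call ended by omitting Meninges replicate 2, Meninges replicate 3 or Skin replicate 3, adjusted p up to 0.120 over all alternatives), with sums of 554 to 1347, 339 to 557 and 39.3 to 297 CPM. The pericyte gene Rgs5 stood at 184, 454 and 466 CPM in meninges and 101 to 250 CPM in diaphragm, and the smooth muscle actin gene Acta2 at 26.05, 210 and 162 CPM and 10.2 to 39.5 CPM. In skin Rgs5 reached 11.2 CPM at most, and Acta2 137 CPM in replicate 3 and 0.0387 CPM or less in the others. Notch3 and Des had higher means in diaphragm than in meninges, without an edgeR call. Notch3 measured 15.7, 43.7 and 63.0 CPM in meninges, 53.9 to 106 in diaphragm and 0.812 or less in skin. Des reached 5.57 CPM at most in meninges, stood at 40.9 to 64.0 in diaphragm and had no count in skin. In Meninges replicate 1, where the fibroblast sum lay in the range of diaphragm, Plvap and Aqp1 were at their highest. A fit with that library as the only meningeal one was chosen after seeing the data and assumes that it varies like the others. The log2 difference from diaphragm was then 3.87 for Plvap and 1.39 for Aqp1. That library was the highest of its tissue for both genes, so their larger differences were fixed beforehand and say nothing on other cells. Over all alternatives, the log2 difference from skin ran from 3.94 to 4.85 for Plvap and from 3.24 to 4.09 for Aqp1. In the fit with 1 meningeal library, the calls of Esm1, Sox17, Emcn and Cav1 against skin, and both calls against diaphragm, were lost.

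Leukocyte markers summed to 16.3 to 40.0 CPM in meninges, 65.9 to 125 in diaphragm and 0.271 to 29.6 in skin, with 0 of 5 tested called by edgeR (DESeq2 called 1 between diaphragm and skin, where 1 had an unadjusted p under 0.05). Ptprc, the antigen of the negative gate, stood at 118 CPM in Diaphragm replicate 2 and at 6.23 CPM or less elsewhere, and the myeloid gene Lyz2 reached 22.3 CPM at most. Cd3e had no count in meninges or skin. Mesothelial markers reached 1240 CPM in Diaphragm replicate 1, mostly Muc16 and Upk3b, and 108 CPM or less elsewhere, with Muc16 called lower in meninges than in diaphragm (a call lost without Diaphragm replicate 1, adjusted p up to 0.177 over all alternatives). Msln had no count in meninges or skin. Skeletal muscle markers summed to 410 to 1089 CPM in diaphragm against 17.2 to 36.9 in meninges, with Pax7 and Ttn called lower in meninges. The Pax7 call was ended by omitting Diaphragm replicate 1, Meninges replicate 2 or Meninges replicate 3 (adjusted p up to 0.0700 over all alternatives), and the Ttn call by omitting any 1 meningeal library or Diaphragm replicate 2 or 3 (adjusted p up to 0.208). Erythroid markers, of which 0 were called by edgeR, DESeq2 or voom and 0 had an unadjusted p under 0.05, were highest in Diaphragm replicate 1 (235 CPM) and lay between 0.281 and 121 CPM elsewhere. The globin genes Hbb-b1 (0 to 153 CPM) and Hba-a1 (0.250 to 39.4 CPM), which have near-identical copies, were the most abundant of them on average. The part of these cells in the member levels was not tested. Of 12 lymphatic markers, Fgl2 was called lower in meninges than in both other tissues and Lyve1 lower than in skin. The Fgl2 calls held whichever library was omitted, and the Lyve1 call was ended by omitting Meninges replicate 2 or 3 or Skin replicate 1 or 3 (adjusted p up to 0.296 over all alternatives). Of the pan-endothelial markers, the adhesion genes Cdh5 and Pecam1 lay at 312 to 1183 and 218 to 553 CPM in meninges and at 706 to 988 and 637 to 955 CPM elsewhere, and 0 of 10 pan-endothelial markers were called by edgeR (voom called 1 between meninges and skin, where 6 had an unadjusted p under 0.05, and DESeq2 called 0). The other aquaporins were sparse: of the 4 counted, Aqp11 alone was tested and not called, with 15.3 CPM at most. Aqp7 did not pass the low-count filter but stood at 45.1, 0.114 and 3.37 CPM in Diaphragm replicates 1 to 3.

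**Figure D4:**
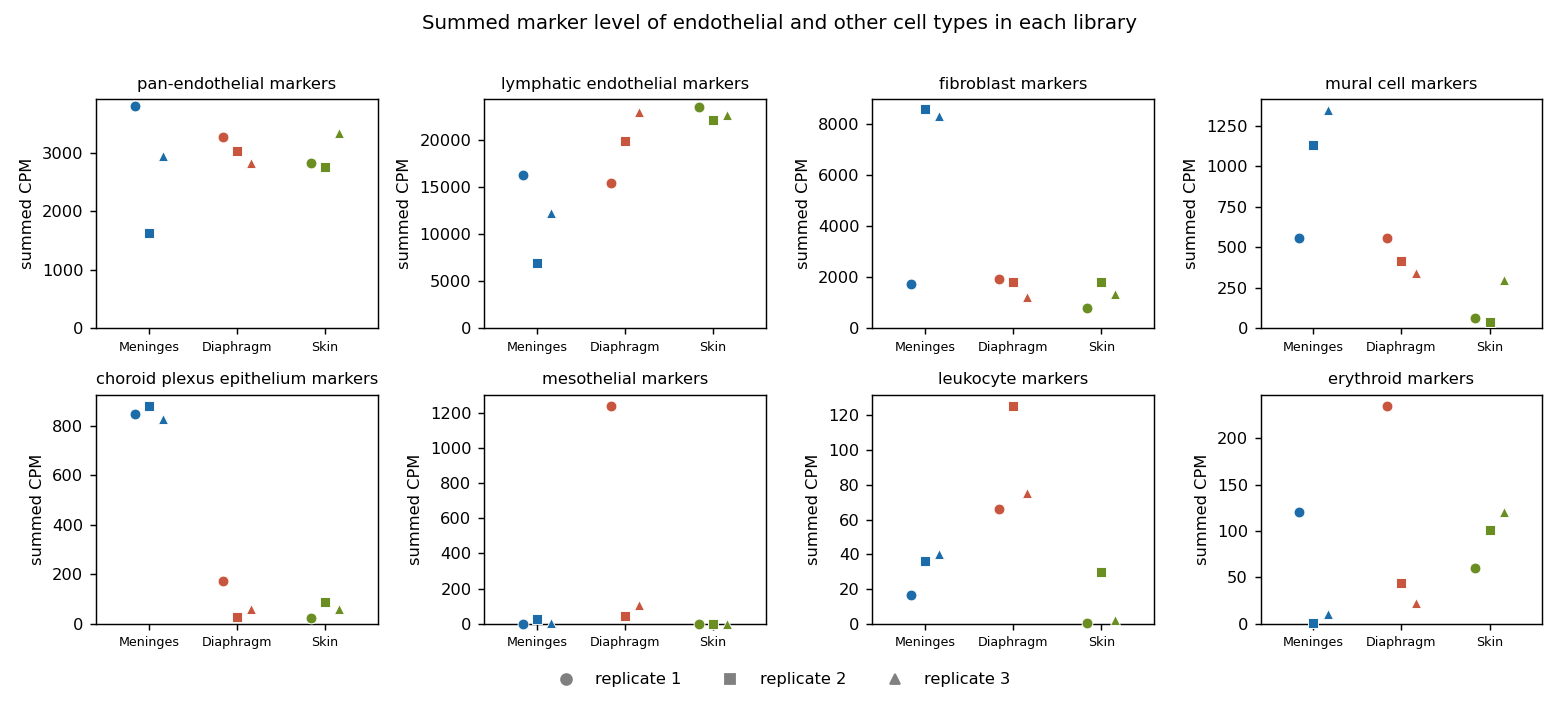
Summed CPM of 8 marker lists in each library, by tissue, on linear axes that start at 0. Symbols are libraries by replicate number. Fibroblast markers are high in Meninges replicates 2 and 3 (8554 and 8298.5 CPM), choroid plexus markers are between 830 and 882 CPM in the meningeal libraries, and mesothelial markers stand out in Diaphragm replicate 1.

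For each tested member, the genes with the most similar pattern were taken by Pearson's r of log2 CPM over the 9 libraries among 8717 candidates whose log2 CPM averaged 3 or more. The points share tissue and library, and r is given as a description. Esm1 was most like Ttr and Snhg11 (r = 0.975 each), Aqp1 like B2m (0.972) and Efemp1 (0.962), and Plvap like Arhgef17 (0.958) and Maged1 (0.941). Cav1 was most like Myadm (0.971) and Cd55 (0.969), Emcn like Fmo2 (0.971) and Ppp1r2 (0.960), and Sox17 like Dio2 (0.974) and Wasf3 (0.969). Ly6c1 was most like Scn7a (0.992) and Col14a1 (0.979), Ly6a like Mndal (0.979) and Msantd4 (0.966), and Aplnr like Lims2 (0.969) and Edn3 (0.961). Arhgef17, a guanine nucleotide exchange factor gene, stood at 86.9 ± 20.6 CPM for meninges, 1.40 ± 0.74 for diaphragm and 1.17 ± 1.37 for skin (SD, n = 3 libraries), and Myadm, a membrane protein gene, at 283 ± 96.0, 786 ± 46.1 and 474 ± 45.7 CPM.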

How the data were processed

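RNA of sorted cells was extracted with the PicoPure kit and amplified with Ovation reagents (RNA-Seq System V2), as the labels' protocols state. The values are deposited whole-number counts for Ensembl genes, made with FastQC, STAR and HTSeq on mm9, per the submitters' processing notes. The sources used here do not give the annotation, strand setting or handling of multiply matching reads, and mm9 coordinates are not used here. Symbols come from the table (15853 genes) or, by Ensembl ID, from the reference (7078 genes). Every member had a symbol in the table.

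Libraries were scaled by TMM and filtered with filterByExpr, which left 14831 genes and 9 of the 10 members. A quasi-likelihood model took 1 mean for each tissue over the 9 libraries, in edgeR 4.0.16 (R 4.3.3), with Benjamini-Hochberg adjustment over all genes and a threshold of 0.05. The common biological coefficient of variation was 1.243. Standard errors are the log2 fold change divided by the root of the F statistic. For tissues without a count, the bound uses 3 counts over the group, which covers counting error only. No 2 replicates were duplicates (chi-square of at least 308.3 for each degree of freedom). The tests were checked on simulated counts.

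The members and lists were chosen with earlier results of these data known. All 10 members are named, and from each list up to 4 called genes and, with fewer than 2 called, the 2 most abundant. Vwf, Flt1, Slco1c1, Slc2a1, Itm2a, Kl, Clic6, Slc4a5, Cav2, Ptrf, Gja5, Ackr1, Cd34, Folr1, Otx2, Prlr, Kcnj13, Prox1, Flt4, Ccl21a, Cd3e, Msln, Dpt, Fbn1, Pi16, Clec3b, Des, Aqp7 and Ly6c2 lie outside this rule and were chosen after their values were seen. Alternatives were the Wald test of DESeq2 1.42.0 and its size factors, scaling by upper quartiles, dropping the filter or asking for 50 counts in 3 libraries, 2-tissue fits, a replicate block, limma 3.58.1 voom, robust estimation and the omission of each library. Tables and plots used Python 3.11.15, pandas 2.3.3 and matplotlib 3.10.9.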

Additional observations from a re-analysis of the deposited data

How the results depend on the processing

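No called difference changed direction. Of the uncalled ones, on the log2 scale, that of Ly6c1 between meninges and diaphragm ran from -0.187 to 1.421 over the omissions of 1 library (below 0 for Diaphragm replicate 2 or 3) and that of Ly6a from -0.662 to 0.893 (below 0 for Diaphragm replicate 2 or Meninges replicate 1). That of Aplnr was 0.024 with Meninges replicate 1 alone for its tissue. That of Esm1 between diaphragm and skin ran from 0 for the omission of Diaphragm replicate 1 to 6.509. The number of members called between meninges and diaphragm was 2. It was 1 with the replicate block, 0 with Meninges replicate 1 alone for its tissue and 1 to 2 without 1 library. It was 3 with DESeq2, without a filter and with voom. Between meninges and skin it was 6, against 8 with DESeq2, 7 without a filter, 4 with the 2 tissues alone, 5 with pan-endothelial scaling, 2 with Meninges replicate 1 alone and 2 to 6 without 1 library. Between diaphragm and skin it was 0, against 4 with DESeq2, 3 without a filter, 1 with the filter of 50 counts, 1 with the robust fit, 1 with Meninges replicate 1 alone and 0 to 3 without 1 library. Over all genes, 51 were called between meninges and diaphragm, 196 between meninges and skin and 6 between diaphragm and skin. In that order the counts were 629, 1108 and 808 with DESeq2, 298, 610 and 305 without a filter, 200, 414 and 1 with limma voom and 11, 58 and 82 with Meninges replicate 1 alone. The 2-tissue fits gave 108 between meninges and diaphragm and 1 between diaphragm and skin, where the filter of 50 counts gave 13, the robust fit 36 and the replicate block 16. Without 1 library the counts were 19 to 105, 74 to 236 and 2 to 58. The cause of these shifts was not tested, and the fits without a library also had fewer samples. Same-numbered libraries shared no deviation (r from -0.021 to 0.051 over 9 pairs, 3 of 9 libraries correlating best with their own number), so the block rests on a number only; with it, Plvap between meninges and diaphragm had an edgeR adjusted p of 0.0538. Where a tissue had no count of Esm1, Sox17, Apln or Aplnr, the values are bounds against a floor of 3 counts.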
